A study of Homo sapiens with 6 samples.

Results

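The genes described here are the cyclins, kinases, inhibitor and substrate that carry a cell from the G1 phase into DNA replication. They are the D cyclins CCND1, CCND2 and CCND3, the E cyclins CCNE1 and CCNE2, the kinases CDK2, CDK4 and CDK6, the inhibitor CDKN1B (p27) and the retinoblastoma gene RB1. They were chosen by symbol, as 10 of the 28278 gene symbols in the count tables, from what the genes do and with the fold changes of this same comparison already known. Their fold changes are therefore given as a description, with no p-value, and whether a gene passed the threshold of the fit over all genes is stated only as a label. All 10 passed the filter on low counts, which left 14002 genes.

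The data are 6 RNA-seq libraries of HCT116, an established line from a poorly differentiated human colon carcinoma. In 3 libraries, called shControl, the cells carried a scrambled control short hairpin RNA (shRNA), and their genotype is labelled WT. In the other 3, called shTRIM21, the cells carried an shRNA against TRIM21, and their genotype is labelled TRIM21 knockdown. Both shRNAs were put in with lentivirus, both groups were selected in puromycin at 5 µg/ml from 36 h after infection for 2 to 3 weeks, and all cells are labelled day 21. The labels name no clone and give no hairpin sequence. They call the 3 libraries of a group biological replicates and do not say whether each had an infection and selection of its own, so p-values measure the spread between these libraries.

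As background, D cyclins are made in response to growth signals and bind CDK4 or CDK6. These kinases begin to phosphorylate RB1, the protein that holds E2F transcription factors in check. E2F then drives transcription of the E cyclins, which bind CDK2, complete the phosphorylation of RB1 and start S phase. CDKN1B binds and blocks cyclin E with CDK2, and D cyclin complexes can take up part of it. In colon carcinoma cells CCND1 is a well-known target of growth and Wnt signalling.

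Library totals ran from 22656160 to 27123657 counts, and ribosomal RNA (rRNA) genes took 6.69% to 15.2% of them. Replicate 3 had the lowest rRNA share of each group (6.69% in shControl, 9.55% in shTRIM21), and values without it are given below. TRIM21 itself had 288, 286 and 443 counts in shControl and 225, 182 and 173 in shTRIM21, so its groups did not overlap. Its log2 fold change of -0.73 (SE 0.17) was not past the threshold without shTRIM21 replicate 3 (-0.62) or without replicate 3 of both groups (-0.45). Of 11 colon epithelial markers 5 averaged at least 5 CPM (counts scaled to library size), among them KRT18, KRT8 and VIL1, and CDX1 and LGALS4 were listed at 0 throughout. Summed, as CPM of the total count, they came to 184 to 197 CPM in shControl and 170 to 178 CPM in shTRIM21, and their part in the results was not tested. Fibroblast, endothelial and leukocyte markers summed to at most 0.332 CPM per list in any library.

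The data on these genes turn on 3 of them. CCND1 (chromosome 11, 69641087 to 69654474, plus strand, GRCh38) was at 59.5% of its control level in the shTRIM21 cells, and CCND2 (chromosome 12, 4273772 to 4305350, plus strand) was at 84.7%. CCNE1 (chromosome 19, 29811898 to 29824308, plus strand) was at 136%. The other E cyclin, the 3 kinases, CDKN1B, CCND3 and RB1 were at 94.5% (CDKN1B) to 112% (CDK2) of their control levels. In the fit over all genes 2 of the 10 were past the threshold as lower, 1 as higher and 7 were not past it. Over all tested genes 9.08% were past it, 4.66% as lower and 4.43% as higher. The median log2 fold change was 0.0039 for the 10 genes and 0.010 for all tested genes.

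CCNE1 is the gene whose start region is shown, because it was the one G1 gene past the threshold as higher in the shTRIM21 cells. The RefSeq promoter table (GRCh38.p14) held windows for 6 of the 10 genes, from 250 bases before to 50 bases after a start, namely CCND3, CCNE1, CDK4, CDK6, CDKN1B and RB1. CCND1, CCND2, CCNE2 and CDK2 had none. The CCNE1 window is chr19:29811741-29812040 on the plus strand, with each GC box (GGGCGG, read on both strands) in capitals.
CCNE1: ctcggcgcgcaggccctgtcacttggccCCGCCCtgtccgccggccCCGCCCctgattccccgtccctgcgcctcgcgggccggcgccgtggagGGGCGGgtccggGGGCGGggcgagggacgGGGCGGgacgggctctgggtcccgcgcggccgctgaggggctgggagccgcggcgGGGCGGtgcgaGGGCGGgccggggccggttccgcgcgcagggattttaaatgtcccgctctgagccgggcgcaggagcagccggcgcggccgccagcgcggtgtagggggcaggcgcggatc
This window was 81.0% G and C and held 7 GC boxes, none overlapping another, at positions -222, -204, -156, -144, -127, -72 and -61 from the start (the first base before the start is -1). This RefSeq start lies downstream of the first base of the gene given above (29811898). The boxes at -72 and -61 lie after that base. A GC box was present in 44.95% of all 35116 windows in the table. An E2F-type site, searched as the letters TTCCCGC, the letters TTGGCGC, the letters TTCGCGC and the letters TTGCCGC on both strands, was not among the letters of this window and was present in 13.0% of all windows. CDKN1B's window (62.3% G and C) held 1 GC box and 3 CCAAT boxes (CCAAT on both strands, in 34.6% of all windows). Windows of other genes with overlapping groups held 5, 4 and 0 GC boxes (CCND3), 3 (CDK4), 3 and 0 (CDK6) and 0 (RB1). The RB1 window (chr13:48476200-48476499) lies at a start inside the gene, far from its first annotated base at 48303726. It therefore does not describe the region before that base. A part of the GC boxes in the CCNE1 level was not tested.

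CCND1, cyclin D1, had 218.5, 216.8 and 220.7 CPM in shControl replicates 1 to 3 and 124.2, 130.3 and 135.7 CPM in shTRIM21. Every shTRIM21 library lay well below every shControl library. The coefficient of variation was 0.906% in shControl and 4.44% in shTRIM21, each from 3 libraries. The median over 9305 genes with at least 10 CPM was 7.22% in shControl and 6.44% in shTRIM21. Genes with fewer counts vary more by counting alone, so the CCND1 values and these medians are not alike in depth. CCND1 lay above 92.3% of tested genes in level. Its mean was 219 ± 1.98 CPM in shControl and 130 ± 5.77 CPM in shTRIM21 (SD, n = 3 each), a log2 fold change of -0.75 (SE 0.06, 95% interval -0.88 to -0.62). Only 2.15% of tested genes had a lower fold change. The value stayed between -0.78 and -0.72 with any 1 library left out, and was -0.77 without replicate 3 of both groups. In these bulk samples, less RNA per cell and fewer cells in the cycle phase that makes it cannot be told apart.

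CCND2, cyclin D2, was the most abundant of the 10 in CPM, with 492.9, 501.2 and 438.5 CPM in shControl and 395.3, 413.7 and 404.5 CPM in shTRIM21. The groups did not overlap, with shControl replicate 3 the nearest to the shTRIM21 libraries. Its mean was 478 ± 34.1 CPM in shControl and 404 ± 9.17 CPM in shTRIM21 (SD, n = 3 each), a log2 fold change of -0.24 (SE 0.06, 95% interval -0.37 to -0.11). CCND2 was no longer past the threshold without shControl replicate 1 (-0.22) or 2 (-0.20), or without shTRIM21 replicate 1 (-0.22), 2 (-0.26) or 3 (-0.24). Without shControl replicate 3 it was -0.29 and past the threshold.

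CCND3, cyclin D3 (chromosome 6, 41934933 to 42050357, minus strand), spread widely within both groups. It had 36.5, 42.4 and 29.1 CPM in shControl and 44.6, 33.2 and 36.8 CPM in shTRIM21, so the groups overlapped. Its coefficients of variation, 18.4% and 15.3%, were the largest of the 10 in each group. The log2 fold change of 0.09 (SE 0.13) had a 95% interval from -0.18 to 0.36, and its sign turned without shControl replicate 3 (-0.04), without shTRIM21 replicate 1 (-0.04) or without replicate 3 of both groups (-0.01).

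**Figure D1:**
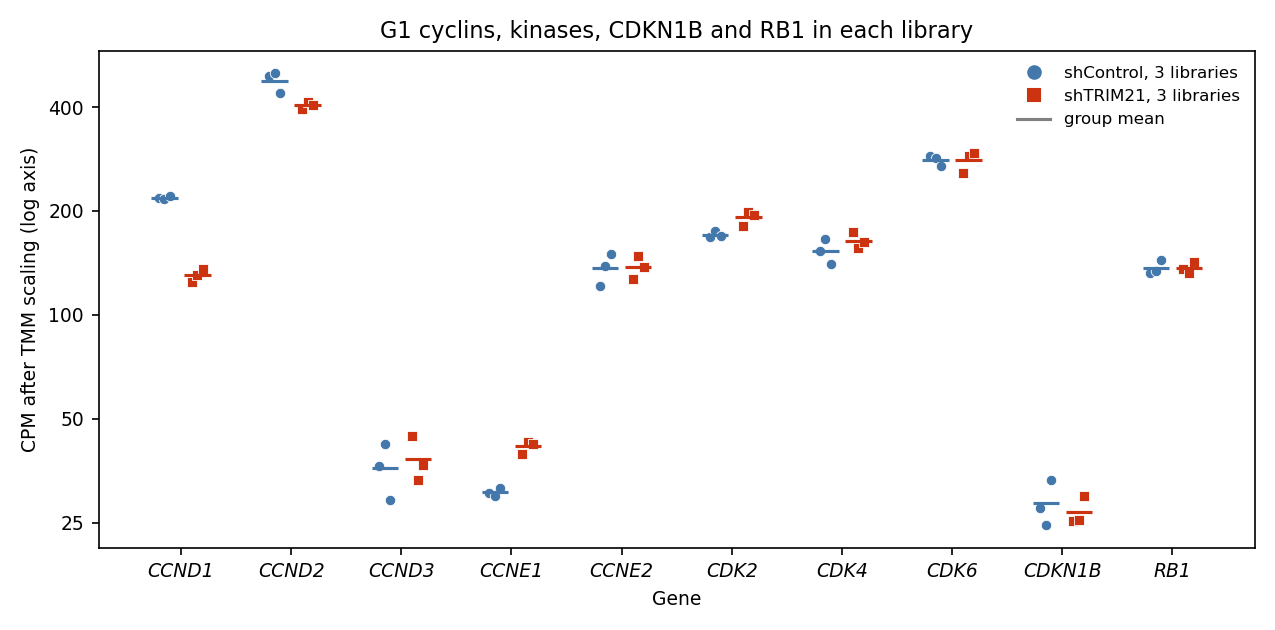
CPM after TMM scaling (vertical log axis) of the 10 genes in each library, with shControl as circles, shTRIM21 as squares and lines at the group means. The CCND1 points of shTRIM21 (124.2 to 135.7 CPM) lie below all shControl points (216.8 to 220.7 CPM), the CCNE1 points lie above, and the RB1, CDK6 and CCNE2 points of the groups overlap.

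CCNE1, cyclin E1, had 30.4, 29.8 and 31.5 CPM in shControl and 39.6, 42.9 and 42.3 CPM in shTRIM21. Every shTRIM21 library lay above every shControl library. Its mean was 30.6 ± 0.837 CPM in shControl and 41.6 ± 1.76 CPM in shTRIM21 (SD, n = 3 each), a log2 fold change of 0.44 (SE 0.09, 95% interval 0.25 to 0.63). With 1 library left out it ran from 0.42 to 0.48, and it was 0.46 without replicate 3 of both groups.

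CCNE2, cyclin E2, lies on chromosome 8 at 94879770 to 94896678 (minus strand). It had 121.4, 138.5 and 150.1 CPM in shControl and 127.1, 148.0 and 137.8 CPM in shTRIM21. The groups overlapped almost fully. Its log2 fold change was 0.0094 (SE 0.08, 95% interval -0.16 to 0.18), from counts that may hold reads of INTS8, since it shares 1629 exon bases with that gene. Its sign turned without shControl replicate 1, without shTRIM21 replicate 2 or with the rRNA genes left out, with values from -0.07 to 0.09 over all alternatives.

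CDK2, the partner of the E cyclins (chromosome 12, 55966769 to 55972784, plus strand), was slightly higher in each shTRIM21 library. It had 167.7, 174.7 and 169.5 CPM in shControl and 181.1, 198.5 and 194.9 CPM in shTRIM21, which did not overlap. The log2 fold change was 0.17 (SE 0.06, 95% interval 0.03 to 0.30), and CDK2 was not past the threshold in any alternative. With CCND1, CCND2 and CCNE1 it makes 4 of the 10 genes whose groups did not overlap, where 28.1% of all tested genes had groups that did not.

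CDK4 (chromosome 12, 57747727 to 57756013, minus strand) and CDK6 (chromosome 7, 92604921 to 92836594, minus strand) are the partners of the D cyclins. CDK4 had 153.3, 166.0 and 140.0 CPM in shControl and 173.5, 156.0 and 162.4 CPM in shTRIM21. CDK6 had 288.2, 285.4 and 270.4 CPM in shControl and 258.0, 289.5 and 293.6 CPM in shTRIM21. Both overlapped between the groups, with log2 fold changes of 0.10 (SE 0.07, 95% interval -0.05 to 0.25) for CDK4 and -0.0048 (SE 0.06, 95% interval -0.14 to 0.13) for CDK6. The CDK6 sign turned without shControl replicate 1 or 2, without shTRIM21 replicate 1 or with upper quartile scaling.

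CDKN1B, p27 (chromosome 12, 12715058 to 12722371, plus strand), had 27.6, 24.6 and 33.1 CPM in shControl and 25.3, 25.5 and 29.9 CPM in shTRIM21. The highest library of each group was replicate 3, and the groups overlapped. Its log2 fold change was -0.08 (SE 0.12, 95% interval -0.33 to 0.17), and it was 0.05 without shControl replicate 3. RB1 (chromosome 13, 48303726 to 48599436, plus strand) had 132.0, 133.9 and 144.3 CPM in shControl and 135.9, 131.9 and 142.0 CPM in shTRIM21, so again replicate 3 was highest in each group. Its log2 fold change was -0.0016 (SE 0.07, 95% interval -0.14 to 0.14), and its sign turned under 5 of 15 alternatives, within -0.03 to 0.05.

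**Figure D2:**
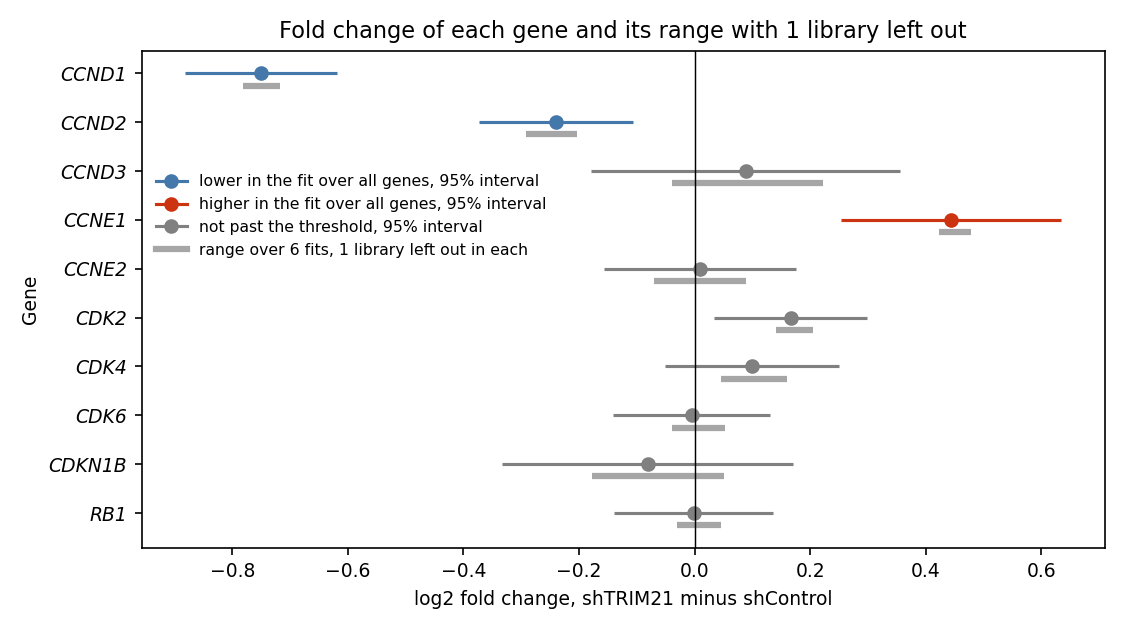
The log2 fold change of each gene (horizontal axis, shTRIM21 minus shControl) with its 95% interval, and below it in grey the range over the 6 fits that each leave out 1 library. CCND1 (-0.75), CCND2 (-0.24), CCNE1 (0.44) and CDK2 (0.17, not past the threshold) keep their side of 0 throughout. The interval of CDK4 crosses 0 and its range does not, and the ranges of CCND3, CCNE2, CDK6, CDKN1B and RB1 cross 0.

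To compare levels between genes, CPM was divided by the length of each gene's merged exons in kilobases (GENCODE release 29, transcripts tagged basic). On this scale, over all 6 libraries, the order of the levels was CDK4 (76.4 ± 5.57 CPM per kb, SD), CDK2 (74.2 ± 5.33), CCND2 (68.1 ± 7.07), CCNE2 (40.0 ± 3.29), CCND1 (39.6 ± 11.1), RB1 (27.3 ± 1.06), CDK6 (23.9 ± 1.17), CCNE1 (17.4 ± 2.97), CDKN1B (10.4 ± 1.24) and CCND3 (9.41 ± 1.45). CCND2 was above CCNE2, CCND1 above RB1, RB1 above CDK6, CDK6 above CCNE1 and CCNE1 above CDKN1B in each of the 6 libraries. CDK4 was above CDK2 in 3 of them and CDKN1B above CCND3 in 4, so these neighbours have no clear order. With the longest protein-coding transcript as the length, CDK2 and CDK4 changed places, and so did CDKN1B and CCND3. CDK6, at 281 CPM in shControl the second most abundant by counts, has 11729 bases of merged exons, which places it seventh per length. The CDK4 and CCNE2 counts may hold reads of TSPAN31 and INTS8, which share exon bases with them on the opposite strand. The CCND2 and CDK2 counts may hold reads of AC008012.1 and AC025162.1, which share exon bases with them and whose symbols were not in the count tables. The places of CDK4, CCNE2, CCND2 and CDK2 in the order carry these limits. So do the sums, shares and ratios below that include any of these genes.

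The places of CCND2 and CCND1 in this order differed between the groups. CCND2 overlapped with CDK2 in shControl (67.7 to 77.3 against 68.7 to 71.6 CPM per kb), and in shTRIM21 it lay below CDK2 in each library (61.0 to 63.8 against 74.2 to 81.3). In shControl CCND1 had 49.2 to 50.1 CPM per kb, above the 35.4 to 43.7 of CCNE2. In shTRIM21 it had 28.2 to 30.8, below the 37.0 to 43.1 of CCNE2.

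The makeup of the D cyclins was also compared, as shares within each library that do not depend on scaling between libraries. These shares, and the sums and ratios after them, rest on the same counts as the fold changes and are no separate evidence. CCND1 made up 36.8%, 35.8% and 40.0% of the summed D cyclin level per length in shControl and 28.05%, 29.05% and 30.04% in shTRIM21. CCND2 made up 56.4%, 56.3% and 54.1%, and then 60.7%, 62.7% and 60.9%. CCND3, the smallest part, made up 6.86% ± 0.963 and then 9.54% ± 1.55 (SD, n = 3 per group). None of these shares overlapped between the groups. A lower CCND1 share raises the others by arithmetic, and the level of CCND2 was lower in shTRIM21 while that of CCND3 overlapped between the groups. The CCND3 share depends on the length taken for the gene, and by its longest protein-coding transcript (2394 in place of 3942 bases) it was 10.7% and 14.7%. As counted, CCND2 was thus the largest part of the D cyclin RNA in all 6 libraries, and more so in the shTRIM21 cells. Its counts may hold reads of AC008012.1.

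The summed D cyclin level was 132 ± 6.43 CPM per kb in shControl and 102 ± 1.04 CPM per kb in shTRIM21 (SD, n = 3 each), or 76.7% of the control level. The summed E cyclin level was 54.5 ± 4.46 and 60.1 ± 3.84 CPM per kb, with groups that overlapped. CCNE1 was the smaller E cyclin, with 29.3%, 26.2% and 25.7% of that sum in shControl and 34.0%, 32.4% and 33.7% in shTRIM21. The ratio of the D to the E cyclin sum was 2.70, 2.51 and 2.13 in shControl and 1.79, 1.60 and 1.69 in shTRIM21. The lowest shControl library, replicate 3, was above the highest shTRIM21 library.

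**Figure D3:**
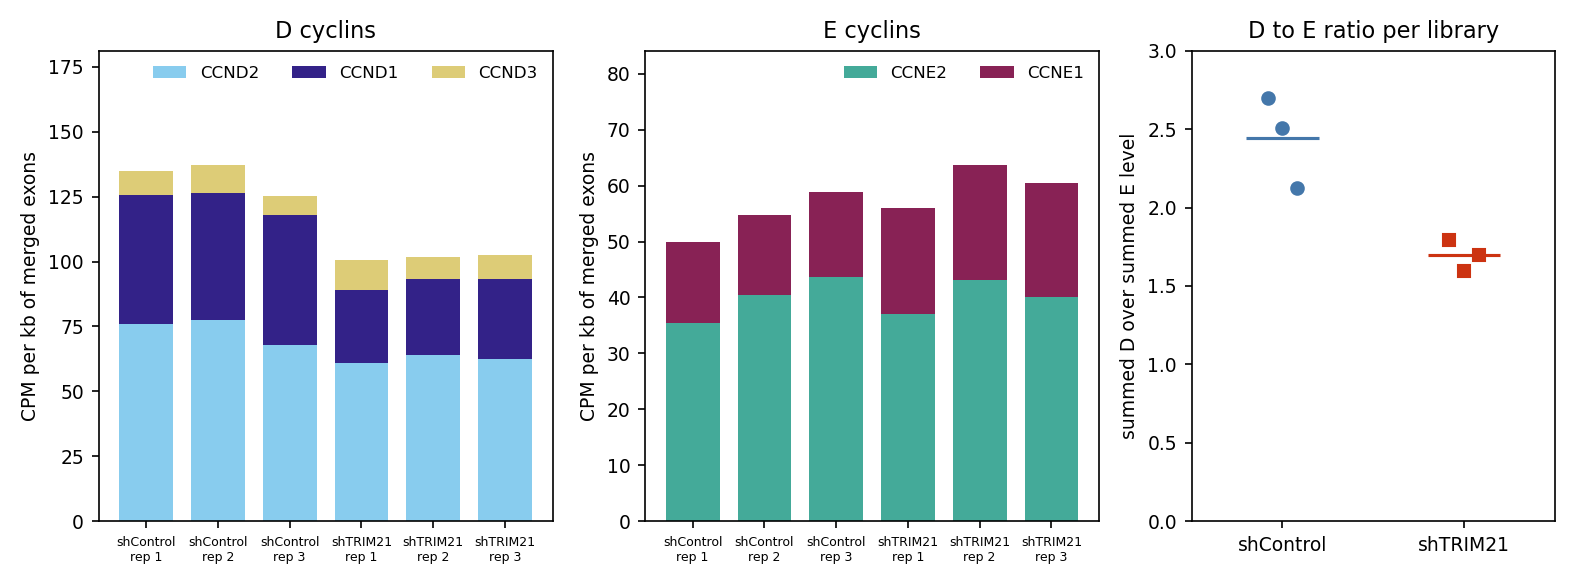
Stacked levels of the D cyclins and of the E cyclins in each library (CPM per kb of merged exons) and the ratio of their sums, with points for libraries and lines for group means. The D cyclin stacks reach 125 to 137 in shControl and 101 to 103 in shTRIM21, and the ratio lies at 2.13 to 2.70 in shControl and at 1.60 to 1.79 in shTRIM21.

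Ratios between partners were computed in the same way. They rest on the same counts as the fold changes and are no separate evidence. The summed D cyclins were at 1.36 ± 0.0352 times the summed level of CDK4 and CDK6 in shControl and at 0.989 ± 0.0342 times in shTRIM21 (SD, n = 3 per group), with no overlap. CDKN1B was at 15.3% ± 2.52 of the CDK2 level in shControl and 12.9% ± 1.14 in shTRIM21, with groups that overlapped. Among the kinases CDK4 made up 43.9% ± 1.66 and 43.6% ± 2.60 of the summed level, and CDK2 41.8% ± 1.47 and 43.3% ± 1.83, both with overlap. CDK6 made up 13.8% to 14.7% in shControl and 12.2% to 13.7% in shTRIM21, apart by less than the spread within either group.

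The genome around the genes limits how far some counts belong to one gene, since the sources used here do not give the strand setting of the counting. CDK4 shares 1369 exon bases with TSPAN31, a tetraspanin gene on the opposite strand, and CCNE2 shares 1629 with INTS8, an Integrator subunit gene on the opposite strand. TSPAN31 had a mean of 3027 counts (log2 fold change 0.06, SE 0.08) and INTS8 of 5305 (0.01, SE 0.07), and reads from the shared bases can be told apart only where counting used strand. For comparison, CDK4 had 3472 to 4421 counts a library and CCNE2 had 2967 to 4217. CCND1 shares 497 exon bases with LTO1 on the opposite strand, which had a mean of 298 counts (-0.25, SE 0.14) against 2900 to 6200 for CCND1. CCND2 shares 126 with CCND2-AS1, which had a mean of 48.8 counts against 9208 to 12317 for CCND2, and CDK2 shares 89 with PMEL, which had 13.8. Larger overlaps lie with genes whose symbols were not in the count tables. CCND2 shares 989 exon bases with AC008012.1, a protein-coding gene on the same strand, and CDK2 shares 565 with AC025162.1, an antisense gene. Reads of these genes, if any, may have been counted as CCND2 or CDK2. Counting by strand would not separate CCND2 from AC008012.1. CDK6 shares 81 with AC002454.1, CCND3 24 with AL513008.1 and CCNE2 4 with AC087752.4, all on the opposite strand. Among genes with counts, NDUFAF6 overlaps CCNE2, MIR6759 overlaps CDK4, and LPAR6 and RCBTB2 overlap RB1, with no shared exon base. CCNE1 overlapped no annotated gene.

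Earlier results of these data had singled out a pair of sequences of 7 bases in 3′ untranslated regions (3′ UTRs) that went with fold changes over all genes, AGTGGAA with lower and GTGTCAC with higher ones. They were looked for in the longest annotated 3′ UTR of each gene. Among tested genes with a 3′ UTR, AGTGGAA was in 41.2% of 604 that were lower, 13.4% of 552 that were higher and 14.9% of 10680 not past the threshold. GTGTCAC was in 10.4%, 21.7% and 9.23% of them. The pair was picked from this same comparison, so these shares restate that choice and are no separate evidence. The 3′ UTRs of CCND1 (3192 bases) and CCND2 (5341 bases) held neither, nor did that of CCNE1 (531 bases). Among genes with at least 1500 bases of 3′ UTR, 27.4% held AGTGGAA and 17.2% held GTGTCAC. CDK6, with 10219 bases of 3′ UTR and overlapping groups, held 1 copy of each and was the only one of the 10 to hold either. Its sites are shown with the 7 bases in capitals, at chr7:92610718-92610747 and chr7:92609250-92609279 on the minus strand.
CDK6 AGTGGAA: tccatctccacAGTGGAAaaacttattgag
CDK6 GTGTCAC: ttctcacagcaGTGTCACttgaaatttagt
The matches describe letters in the annotated sequence and do not show that anything binds there.

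Genes around the 10 were taken from 8 lists chosen by function, with earlier results of these data known. Adjusted p-values of list genes therefore describe the fit over all genes and are no separate evidence. The lists held 151 genes, of which 146 were tested, 8 rose, 6 fell and 132 did not pass, by the quasi-likelihood test of edgeR with p-values adjusted over all genes. That is 9.59% called against 9.08% of all tested genes, a share near the background, and their median log2 fold change was -0.01. The count went down to 8 and 9 without shControl replicates 1 and 2, and to 7, 7 and 5 without shTRIM21 replicates 1, 2 and 3.

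Among the other CDK inhibitors 1 of 6 tested genes rose, none fell and 5 were not past the threshold (median log2 fold change 0.19). The riser was CDKN1A, the p21 inhibitor and p53 target, with 86.8, 86.5 and 79.5 CPM in shControl and 120, 114 and 115 CPM in shTRIM21. All shTRIM21 libraries lay above all shControl libraries. On the log2 scale it rose by 0.47 (SE 0.07; edgeR adjusted p = 0.000229, and 1.74e-08 to 0.00324 over the alternatives).

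Of 16 tested genes of the RB family, the E2F and DP factors and their complex 1 rose, 1 fell and 14 were not past the threshold (median -0.05). E2F5, a repressive E2F that works with the RB relatives, had 49.8 ± 2.18 CPM in shControl and 33.0 ± 4.29 CPM in shTRIM21 (SD, n = 3 each). It fell by 0.59 (SE 0.10) on the log2 scale (edgeR adjusted p = 0.00087). E2F1, an activating E2F held by RB1, had 13.9 ± 0.75 and 18.9 ± 2.08 CPM, a rise of 0.45 (SE 0.13; edgeR adjusted p = 0.0405). With shControl replicate 1, 2 or 3 left out the edgeR adjusted p of E2F1 was 0.0784, 0.101 and 0.0552, and with shTRIM21 replicate 2 or 3 left out it was 0.158 and 0.141.

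Of 34 tested E2F targets of the G1/S transition 2 rose, 2 fell and 30 were not past the threshold (median log2 fold change 0.04). The 11.8% called lie near the 9.08% of all tested genes. MCM6, a subunit of the replicative helicase, had 99.6, 97.6 and 108 CPM in shControl and 147, 151 and 156 CPM in shTRIM21, a rise of 0.57 (SE 0.07; edgeR adjusted p = 1.81e-05). Its fellow subunit MCM5 rose by 0.45 (SE 0.12), which edgeR no longer called when shControl replicate 3 (adjusted p = 0.0617) or shTRIM21 replicate 1 (0.16), 2 (0.0527) or 3 (0.0568) was left out. CCNA2, the cyclin A of S and G2 phase, fell by 0.27 (SE 0.07), a call lost in edgeR's test without shTRIM21 replicate 1 (0.0795) or 3 (0.117). UHRF1, which guides maintenance of DNA methylation, fell by 0.21 (SE 0.06), a call lost without shControl replicate 1 (0.103) or 2 (0.136) or shTRIM21 replicate 1 (0.0864), 2 (0.133) or 3 (0.0926). CCNE1, itself an E2F target, rose while its relative CCNE2, another E2F target, had overlapping groups.

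Genes for the turnover of cyclins and CDKN1B, such as the SCF ubiquitin ligases, had 0 of 22 tested members past the threshold in edgeR's test, DESeq2 and limma-voom. Of these genes 3 had an unadjusted edgeR p under 0.05, a count given without the share of all tested genes under that cut. Their log2 fold changes had a median of -0.04. Of 9 genes of CDK activation 1 rose, none fell and 8 were not past the threshold. The riser was WEE1, the kinase that holds CDKs inactive, which rose by 0.26 (SE 0.08; edgeR adjusted p = 0.0364). The WEE1 call was lost without shControl replicate 1 (0.114) or 2 (0.0662) or shTRIM21 replicate 2 (0.164) or 3 (0.111).

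Of 28 later and transcriptional cyclins and CDKs 1 rose, 3 fell and 24 were not past the threshold (median -0.02). Besides CCNA2, CCNB1, the cyclin B of mitosis, fell by 0.23 (SE 0.06) and CDK17 fell by 0.25 (SE 0.06). CCNG2, an unconventional cyclin tied to growth arrest, rose by 0.46 (SE 0.14). In edgeR's test the CCNB1 call was lost without any 1 library other than shControl replicate 3 (adjusted p from 0.0622 to 0.12), and so was that of CCNG2 (0.0522 to 0.213). The CDK17 call was lost without shControl replicate 1 (0.0648) or shTRIM21 replicate 1 (0.0841) or 3 (0.0655).

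Of 23 genes that induce D cyclin transcription 2 rose, 1 fell and 20 were not past the threshold (median 0.02). JUN, an AP-1 subunit, had 320 ± 11.1 CPM in shControl and 398 ± 9.72 CPM in shTRIM21 (SD, n = 3 each), a rise of 0.32 (SE 0.06; edgeR adjusted p = 0.00235). MAPK3, the kinase ERK1, rose by 0.44 (SE 0.12), a call lost in edgeR's test without shControl replicate 1 (0.0572) or shTRIM21 replicate 1 (0.0977), 2 (0.0635) or 3 (0.08). JUN, CDKN1A, E2F5 and MCM6 were called under all 15 alternatives tried. Of 10 checkpoint and growth signalling genes 0 passed in edgeR's test, DESeq2 and limma-voom. An unadjusted edgeR p under 0.05 was found for 3 of them, again without the share of all tested genes beside it. In edgeR's test 1 of them passed without shControl replicate 3 and without replicate 3 of both groups. Leaving out replicate 3 of both groups also ended the calls of E2F1, CCNA2, WEE1, CCNB1, CCNG2 and MAPK3 (edgeR adjusted p from 0.0546 to 0.12), and limma-voom did not call E2F1 (0.0501) or CCNG2 (0.0556).

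**Figure D4:**
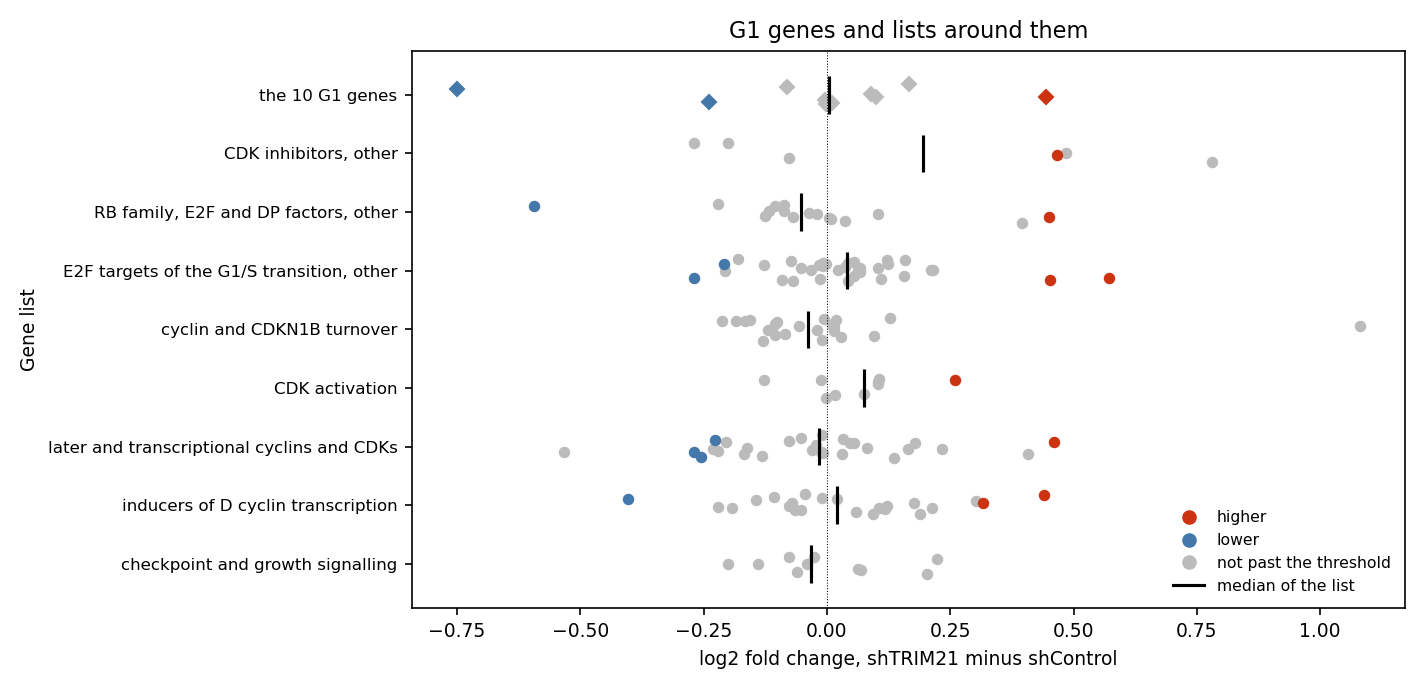
Log2 fold changes (horizontal axis, shTRIM21 minus shControl) of the 10 G1 genes and of the tested genes in the 8 lists, red where higher, blue where lower and grey where not past the threshold, with list medians as black bars. The list medians lie between -0.05 and 0.19, and CCND1 (-0.75) lies below all called genes of the lists.

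The genes whose log2 CPM followed CCND1 most closely over the 6 libraries, among 9304 with at least 10 CPM, were KIF2C (Pearson r 0.998), PARP4 (0.998), MBNL3 (0.997) and CCP110 (0.997). Those closest to CCNE1 were SOD2 (0.999), CHMP2B (0.998), SERP1 (0.997) and YBX3 (0.997). These are descriptions over 6 points that share their libraries, and the points fall into the 2 groups. The former genes were all lower in shTRIM21, by 0.26 (SE 0.07) for KIF2C to 0.60 (SE 0.07) for MBNL3 on the log2 scale, and the latter all higher, from 0.44 (SE 0.06) for SOD2 to 0.79 (SE 0.07) for YBX3.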

How the data were processed

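RNA counts were compared between 3 shTRIM21 and 3 shControl libraries of HCT116 cells. The deposited tables hold raw counts by gene symbol, 1 table for a library, and were not normalized by the authors. The submitters' processing notes name TopHat2 2.1.1, edgeR 3.38.1, limma 3.52.2 and the hg38 build. How reads were counted (tool, annotation, strand, reads with several positions) is not given in the sources used here. Of 28278 symbols, 9276 were at 0 in all libraries, and totals ran from 22656160 to 27123657 counts.

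The quasi-likelihood test of edgeR 4.0.16 (R 4.3.3) was run after its default filter and TMM scaling, with no term but the group. Benjamini-Hochberg adjustment covered all 14002 tested genes, with a threshold of 0.05. CPM is relative to TMM-scaled library sizes, and the standard error (SE) is the log2 fold change divided by the square root of F. Correlations used log2 CPM with a prior count of 2. Positions, exons and 3′ UTRs come from GENCODE release 29 (GRCh38), which matched 25560 symbols and all 10 genes. Merged exon lengths cover transcripts tagged basic, and exon bases shared between genes were counted over all annotated transcripts. Alternatives were other scalings, no filter, DESeq2 1.42.0, limma-voom (limma 3.58.1), the replicate number as a block, each library or replicate 3 left out, and the 20 most abundant or the rRNA genes left out.

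The 10 genes and the lists were chosen with earlier results of these data known. The text names the 10 genes, TRIM21, up to 4 called genes of each list and any that went the other way, overlapping genes with a mean of at least 10 counts or with shared exon bases (the latter added after the overlaps were seen), and the 4 genes most like CCND1 and CCNE1. A gene that met this rule is not reported here.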

Additional observations from a re-analysis of the deposited data

How the results depend on the processing

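CCND1 and CCNE1 kept their direction and their side of the threshold under all 15 alternatives, at -0.78 to -0.72 and 0.42 to 0.48. Of the 10 genes 2 to 3 were called with 1 library left out, and 3 under each other alternative, with CCND2 the one lost. The genes of the lists called numbered 5 to 18 with 1 library left out, against 14, and all genes called numbered 602 to 1737, against 1272. With the replicate number as a block, 3 of the 10 genes, 19 list genes and 1699 genes in all were called, and no call among the 10 changed. Same-numbered libraries deviated together with correlations of 0.096, -0.0123 and 0.0907, so number 2 did not correlate best with its own number, and the fit is unpaired. Upper quartile scaling moved the median of all genes by 0.02 on the log2 scale and RLE scaling by -0.01. With rRNA genes left out 593 genes were higher and 793 lower, against 620 and 652. By the longest transcript, a length chosen after the data were seen, the CCND1 share of the D cyclins in shTRIM21 was 27.8% in place of 29.04%, and the D to E ratio went from 2.51 to 1.76 in place of 2.44 to 1.69. The CCND3 share moved over 1.5 times, to 10.7% and 14.7% in place of 6.86% and 9.54%, and that of CCND2 was 52.8% and 57.5% in place of 55.6% and 61.4%. CCND3 and CDKN1B, at 567 to 1137 counts a library, varied most within the groups.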
